A study of Macaca mulatta with 16 samples.

Results

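The genes described here are 10 genes of the alveolar macrophage and of the colony-stimulating factor (CSF) pathways that form and maintain it. They are the scavenger and pattern receptors MARCO, MSR1, MRC1 and CD163, the lipid genes PPARG and FABP4, the growth factor CSF2 with its receptor chain CSF2RB, and the growth factor CSF1 with its receptor CSF1R. The choice was by symbol, with no threshold on values, and was made when earlier results of these data were known. Each symbol matched 1 Ensembl gene of the rhesus annotation, and these 10 of 22515 rows of the count table all passed the filter on low counts that left 19199 genes for testing.

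Bulk RNA was sequenced from the lungs of 16 fetal rhesus macaques in 5 groups, with 1 library per animal. The preterm controls were 4 untreated fetuses delivered at 131 to 135 days of gestation, and the term controls were 2 untreated fetuses delivered at 156 and 157 days. LPS, a bacterial lipopolysaccharide, was injected into the amniotic fluid at 1 mg in the other 10 animals. Of these, 4 were treated at 129 or 130 days and delivered 16 hours later at 130 or 131 days (LPS 16h), and 3 were treated at 126 to 129 days and delivered 5 days later at 131 to 134 days (LPS 5d). The last 3 were treated at 126 or 127 days with LPS and with Beta-Ac, the glucocorticoid betamethasone-acetate, given to the dam in muscle at 0.125 mg/kg, and were delivered 5 days later at 131 or 132 days (LPS + Beta-Ac). The labels name no sex, strain or sequencing batch. Each sample was whole lung tissue, in which every cell type contributed RNA.

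Alveolar macrophages descend from fetal monocytes that enter the developing lung before birth. CSF2, also called GM-CSF, comes largely from lung epithelium and drives their maturation through CSF2RB and the nuclear receptor PPARG, which turns on lipid-handling genes such as FABP4. CSF1, or M-CSF, acts through CSF1R on monocytes and macrophages in general, while MARCO, MSR1, MRC1 and CD163 are surface receptors by which macrophages take up bacteria, modified lipoproteins, sugars and haemoglobin.

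The libraries held 20169363 to 48052891 counts, and the 4 LPS 16h libraries were the deepest group at 30596371 counts or more. Values below are CPM, the counts scaled to a common library size, after TMM scaling, a correction for differences in library composition, given as the mean ± SD over animals unless single animals are named. A gene was called changed at a Benjamini-Hochberg adjusted p below 0.05 in limma together with a change of at least 2-fold, which is 1 on the log2 scale. The lung markers NKX2-1, SFTPC, AGER, FOXF1 and TBX4 summed to between 2534 and 9860 CPM in the 16 animals.

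At 16 hours after LPS, 8 of the 10 genes were called higher than in preterm controls and none lower, where 8.3% of all tested genes were called higher and 6.07% lower. At 5 days, LPS alone left 2 of the 10 higher and none lower, against 2.6% and 2.23% of all genes. LPS + Beta-Ac at 5 days left 7 of the 10 higher and none lower, against 4.05% and 2.44%. In term controls none of the 10 was called in either direction, where 1.11% of all genes were called higher and 0.953% lower. The median log2 fold change of the 10 genes was 2.35, 0.83, 1.70 and 1.15 in these 4 comparisons, while that of all tested genes lay between -0.09 and -0.002. In whole tissue, more cells of a type and more RNA per cell cannot be told apart.

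**Figure D1:**
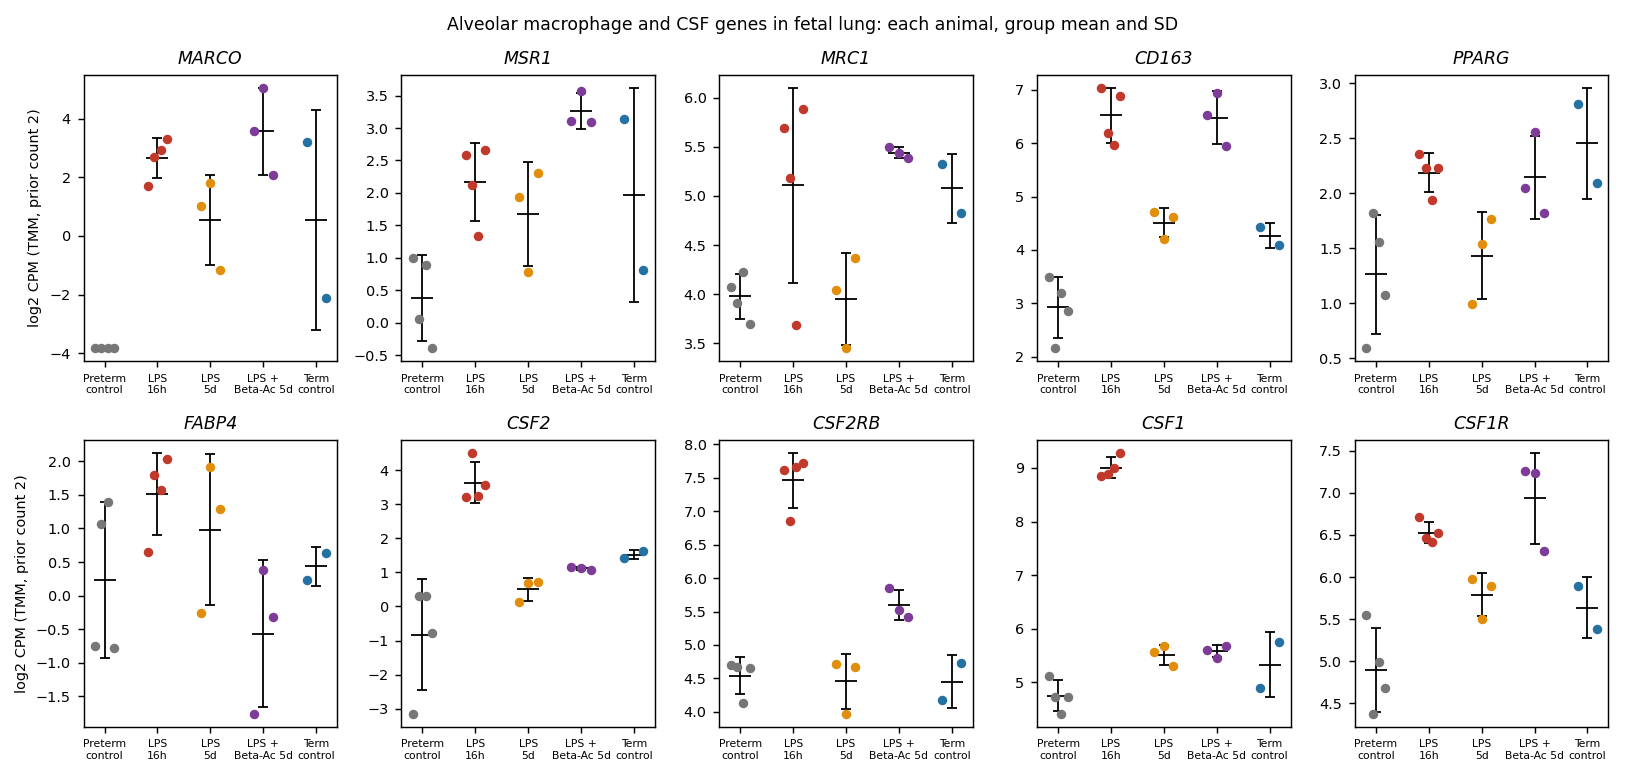
Level of each of the 10 genes (log2 CPM after TMM scaling, prior count 2) in each of the 16 animals by group, with the group mean and SD. MARCO sat at its lowest value in all 4 preterm controls, CSF1 and CSF2 stood above all other groups at LPS 16h, and CD163 and CSF1R were high both at LPS 16h and in LPS + Beta-Ac.

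MARCO, a class A scavenger receptor of alveolar macrophages that binds bacteria and particles, had no count in any of the 4 preterm controls. A count of 0 allows up to 3 counts in a library, which set a mean floor of 0.121 CPM for these controls and covers counting error only. After LPS 16h the 4 animals read 3.23, 6.38, 7.55 and 9.83 CPM, a mean of 6.75. This was 55.7-fold the floor, and so at least 55.7-fold higher than in the preterm controls. The gene was thus detected in every LPS 16h animal and in no preterm control. At LPS 5d the 3 animals read 1.96, 3.45 and 0.380 CPM, at least 15.9-fold higher on average. In LPS + Beta-Ac they read 11.9, 33.3 and 4.12 CPM, at least 136-fold higher on average, and all 3 lay above the 3 LPS 5d animals. The term controls were far apart, with 9.12 CPM in animal 200 and 0.162 CPM in animal 201, which rested on 5 counts.

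The adjusted p of MARCO against preterm controls was 0.000117 at LPS 16h, 0.0121 at LPS 5d and 0.000349 in LPS + Beta-Ac, and 0.0541 at term, where it was not called. The call at LPS 5d was lost without animal 239 (adjusted p = 0.0506) or animal 240 (0.0672) and with limma-voom (0.208). Without animal 201, the term group was called higher (adjusted p = 0.0042). LPS + Beta-Ac exceeded LPS 5d by 3.01 ± 1.11 (SE) on the log2 scale, with a 95% confidence interval of 0.64 to 5.38, but the adjusted p over all genes was 0.717 and the gene was not called.

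MSR1, also a class A scavenger receptor, which takes up modified lipoproteins, read 1.92, 0.971, 1.77 and 0.691 CPM in the preterm controls. It read 5.90, 4.27, 2.45 and 6.22 CPM at LPS 16h and 8.58, 11.9 and 8.44 CPM in LPS + Beta-Ac. Neither of these groups overlapped the preterm controls, and both were called higher. The increase was 3.45-fold at LPS 16h (log2 1.79 ± 0.49, adjusted p = 0.01002) and 7.34-fold in LPS + Beta-Ac (log2 2.88 ± 0.53, adjusted p = 0.00187). At LPS 5d the 3 animals read 3.77, 1.65 and 4.89 CPM, animal 240 fell inside the preterm range, and the gene was not called (log2 1.29, interval 0.16 to 2.43, adjusted p = 0.122). The term controls read 8.75 and 1.68 CPM, again with animal 200 high and animal 201 within the preterm range, and the gene was called at term without animal 201 (log2 2.76, adjusted p = 0.0332).

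MRC1, the mannose receptor, which is also made by lymphatic endothelium, averaged 15.8 ± 2.49 CPM in preterm controls and 16.0 ± 4.88 CPM at LPS 5d, and these groups overlapped (log2 -0.02, interval -0.87 to 0.82). In LPS + Beta-Ac the 3 animals lay close together at 45.1, 43.4 and 41.8 CPM, above every preterm and LPS 5d animal. This was a 2.76-fold increase over preterm controls (log2 1.46 ± 0.40, adjusted p = 0.0194), a call that was lost without animal 248 (adjusted p = 0.0648) or animal 249 (0.0570). At LPS 16h the animals read 51.7, 36.1, 12.8 and 58.8 CPM. Animal 035 lay below every preterm control, whereas the other 3 were above all of them. The increase of 2.19-fold at LPS 16h was called (adjusted p = 0.0245), but the call was lost without animal 026, 038, 101 or 209, with an adjusted p of 0.0523 to 0.0804, and with library totals (0.0522) or a fit of only these groups (0.0634). The term controls, at 40.1 and 28.3 CPM, were both above the preterm range without a call (log2 1.10, interval 0.14 to 2.06, adjusted p = 0.196).

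CD163, the haemoglobin-haptoglobin receptor of tissue macrophages, was called in more comparisons than any of the other 9 genes. The preterm controls read 11.2, 4.39, 9.05 and 7.20 CPM and the LPS 16h animals 131, 73.4, 62.8 and 119 CPM, an increase of 12.1-fold (log2 3.60 ± 0.30, adjusted p = 3.48e-07). At LPS 5d the animals read 26.1, 18.3 and 24.5 CPM, which was 3.003-fold over preterm controls (log2 1.59 ± 0.32, adjusted p = 0.00496) and lower than at LPS 16h by 2.01 on the log2 scale (adjusted p = 0.000236). In LPS + Beta-Ac they read 92.8, 123 and 61.9 CPM, which was 11.7-fold over preterm controls (log2 3.55 ± 0.32, adjusted p = 1.07e-05). No LPS-exposed animal overlapped the preterm controls, and the LPS + Beta-Ac animals overlapped the LPS 16h animals but not the LPS 5d animals. The term controls read 21.5 and 17.1 CPM, also above the preterm range, and were not called (log2 1.34, interval 0.55 to 2.13, adjusted p = 0.0570).

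PPARG, the nuclear receptor that sets the lipid programme of alveolar macrophages, was called in none of the 8 comparisons by limma or limma-voom, with an unadjusted p below 0.05 in 6 of them. It averaged 2.45 ± 0.90 CPM in preterm controls, 4.51 ± 0.54 CPM at LPS 16h and 4.45 ± 1.23 CPM in LPS + Beta-Ac. All animals of both exposed groups lay above all preterm controls. In LPS + Beta-Ac this was nearly a tie, with 3.467 CPM in animal 255 against 3.466 CPM in preterm animal 101. The difference at LPS 16h had an adjusted p of 0.0151 but a log2 fold change of 0.93, under the minimum, and passed it without animal 035, 101 or 113 (1.01 to 1.11). In LPS + Beta-Ac the log2 fold change was 0.88 (interval 0.25 to 1.52, adjusted p = 0.0534), and 1.07 without animal 101 (adjusted p = 0.0271). The highest group mean was that of the term controls, with 6.948 and 4.202 CPM, called against preterm controls only without animal 101 (log2 1.38, adjusted p = 0.0481), and at LPS 5d the level of 2.70 ± 0.71 CPM overlapped that of preterm controls.

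FABP4, a fatty acid carrier of alveolar macrophages, adipocytes and capillary endothelium, was called in none of the 8 comparisons by limma or limma-voom, and had an unadjusted p below 0.05 in 1 of them. It was low and scattered, with 0.523, 2.03, 2.55 and 0.509 CPM in preterm controls and 0.226, 1.23 and 0.732 CPM in LPS + Beta-Ac. It was the only gene of the 10 with a lower mean in LPS + Beta-Ac than in LPS 5d (log2 -1.55, interval -3.05 to -0.04, adjusted p = 1.00), and the animals of those groups overlapped. At LPS 16h the mean was 2.97 ± 1.09 CPM (log2 1.28 over preterm controls, interval -0.02 to 2.59, adjusted p = 0.112). No pair of groups that followed each other in the order of the FABP4 means was free of overlap.

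CSF2, the growth factor of alveolar macrophages, read 0.0436, 1.16, 1.17 and 0.509 CPM in preterm controls, where animal 092 stood lowest with 1 count. At LPS 16h the animals read 9.17, 22.6, 9.35 and 11.8 CPM, all above every animal of the other 4 groups. The increase was 22.0-fold (log2 4.46 ± 0.58, adjusted p = 3.11e-05). At LPS 5d the animals read 1.02, 1.54 and 1.57 CPM, 8.72-fold lower than at LPS 16h (log2 -3.12 ± 0.63, adjusted p = 0.00133) and not called against preterm controls (log2 1.33, interval -0.01 to 2.67, adjusted p = 0.181). LPS + Beta-Ac held 2.15, 2.10 and 2.04 CPM, a narrow range above all preterm and LPS 5d animals. It was called higher than in preterm controls (log2 1.94 ± 0.63, adjusted p = 0.0453), but the call was lost without animal 209, 248, 249 or 255 (adjusted p = 0.0673 to 0.116) and with limma-voom, a prior count of 0.5 or a fit of only these groups (0.0632 to 0.124). Without animal 092 the log2 difference from preterm controls was 3.69 at LPS 16h and 1.18 in LPS + Beta-Ac, both called, and 0.57 at LPS 5d and 1.58 at term, neither called. The term controls read 2.61 and 3.01 CPM, above all preterm, LPS 5d and LPS + Beta-Ac animals, with an adjusted p of 0.0809 against preterm controls.

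CSF2RB is the signalling chain shared by the receptors of CSF2, IL-3 and IL-5. It averaged 23.6 ± 4.13 CPM in preterm controls, 22.4 ± 5.88 CPM at LPS 5d and 22.2 ± 6.01 CPM at term, and these 3 groups overlapped. The log2 difference from preterm controls was -0.09 at LPS 5d (interval -0.60 to 0.43) and -0.09 at term (interval -0.68 to 0.49). At LPS 16h the animals read 197, 115, 202 and 211 CPM, 7.57-fold over preterm controls (log2 2.92 ± 0.22, adjusted p = 1.02e-07). LPS + Beta-Ac stood between, at 57.8, 46.1 and 42.8 CPM, above every animal of the 3 lower groups and below every LPS 16h animal. It exceeded preterm controls 2.08-fold (log2 1.06 ± 0.24, adjusted p = 0.00698), which fell just under the fold minimum without animal 113 (log2 0.92) or animal 248 (log2 0.93). Against LPS 5d it was 2.22-fold higher without a call (log2 1.15, interval 0.60 to 1.70, adjusted p = 0.155).

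CSF1, the growth factor of the monocyte and macrophage lineage, read 34.8, 26.5, 21.4 and 26.4 CPM in preterm controls. At LPS 16h it read 464, 474, 510 and 622 CPM, 19.1-fold higher (log2 4.25 ± 0.18, adjusted p = 2.88e-10). The lowest LPS 16h animal stood above every animal of the other 4 groups. At LPS 5d it had fallen 11.2-fold from the level at 16 hours (log2 -3.49 ± 0.19, adjusted p = 9.86e-09), to 47.1, 51.0 and 39.5 CPM. In LPS + Beta-Ac it read 48.8, 44.1 and 51.1 CPM. Every animal of both 5-day groups lay above the preterm controls. The log2 difference was 0.76 at LPS 5d (adjusted p = 0.0156) and 0.83 in LPS + Beta-Ac (adjusted p = 0.00747), and neither reached the fold minimum. LPS + Beta-Ac and LPS 5d overlapped, and their difference was 0.07 on the log2 scale with an interval of -0.37 to 0.51.

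CSF1R, the receptor of CSF1 and IL-34 and a marker of monocytes and macrophages, read 46.9, 20.8, 31.6 and 25.6 CPM in preterm controls. It read 105, 87.9, 85.6 and 91.7 CPM at LPS 16h and 153, 151 and 79.3 CPM in LPS + Beta-Ac, with no overlap with the preterm controls in either group. The increase was 3.09-fold at LPS 16h (log2 1.63 ± 0.25, adjusted p = 0.000112) and 4.09-fold in LPS + Beta-Ac (log2 2.03 ± 0.27, adjusted p = 0.000157). At LPS 5d, 63.0, 45.1 and 59.3 CPM gave a log2 fold change of 0.89 (adjusted p = 0.0355), under the fold minimum, and 1.11 without animal 092, the highest preterm control. The term controls read 59.4 and 41.5 CPM and overlapped both the preterm and the LPS 5d animals.

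**Figure D2:**
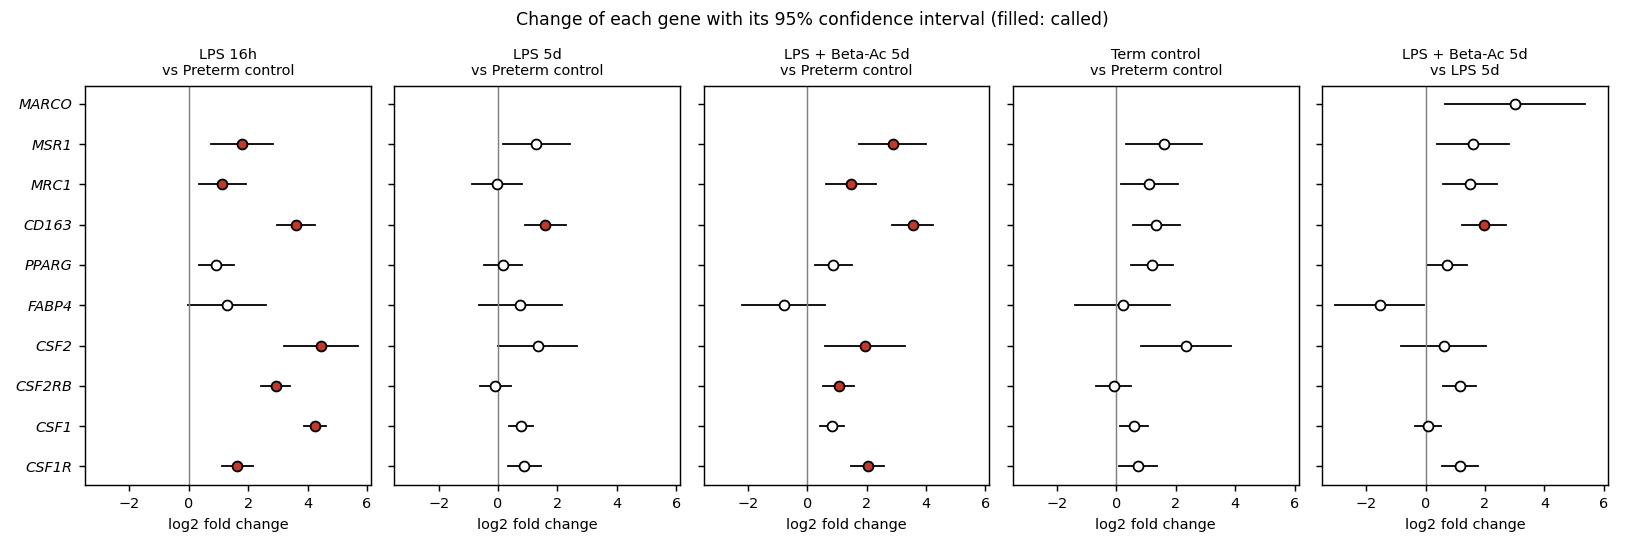
Log2 fold change (x axis) of each gene with its 95% confidence interval in 5 comparisons, filled where the gene was called. No fold change is drawn for MARCO against preterm controls, since all 4 were at 0 counts. CSF1, CSF2 and CD163 lie farthest from 0 at LPS 16h, and CD163 is the only filled point in the comparison of LPS + Beta-Ac with LPS 5d.

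From 16 hours to 5 days after LPS, all 10 genes had a lower mean on the log2 scale and 5 were called lower, namely MRC1, CD163, CSF2, CSF2RB and CSF1. None was called higher, where 6.61% of all tested genes were called higher and 8.02% lower. Except for MRC1, the animals of the called genes did not overlap. MRC1 differed by -1.16 ± 0.40 (adjusted p = 0.0342), a call lost without animal 026, 029, 038, 239 or 240 (adjusted p = 0.0590 to 0.149) and with limma-voom (0.0636), library totals (0.0674) or a fit of only these groups (0.106). The smallest differences in size were those of MSR1, at -0.49 (interval -1.62 to 0.64), and FABP4, at -0.53 (interval -1.94 to 0.87).

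Adding Beta-Ac to LPS, compared at the same interval of 5 days, gave a higher mean on the log2 scale for 9 of the 10 genes, and 1 was called higher and none lower. In this comparison 0.104% of all tested genes were called higher and 0% lower. CD163 was the called gene, 3.91-fold higher (log2 1.97 ± 0.35, interval 1.22 to 2.71, adjusted p = 0.0496). The call was lost without animal 239, 240, 242, 248 or 249 (adjusted p = 0.131 to 0.251), and also with limma-voom, no filter on low counts, a prior count of 0.5 or a fit of only these groups (0.0550 to 0.0823). In 8 of the 10 genes every LPS + Beta-Ac animal lay above every LPS 5d animal, which held for 6.33% of all tested genes. The 2 exceptions were FABP4 and CSF1. Among the receptors without a call, the difference was 1.58 for MSR1 (interval 0.37 to 2.79), 1.49 for MRC1 (interval 0.58 to 2.39) and 1.14 for CSF1R (interval 0.54 to 1.75). CSF1R was called without animal 255 (log2 1.46, adjusted p = 0.0378), the lowest of its group.

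At term without exposure, 9 of the 10 genes had a higher mean on the log2 scale than in preterm controls, and none passed the test in limma or in limma-voom, while 8 had an unadjusted p below 0.05. In MARCO, MRC1, CD163, PPARG and CSF2, 5 of the 10, both term animals lay above all preterm controls, which held for 11.2% of all tested genes. With 2 term animals the intervals were wide, and CSF2 had the largest difference with a fold, at 2.35 (interval 0.83 to 3.87). The CSF2 difference was 1.58 without preterm animal 092, which had 1 count of this gene. Between LPS 5d and term controls none of the 10 was called by limma or limma-voom, with 2 at an unadjusted p below 0.05 (MRC1 and PPARG, both lower at LPS 5d), and 0.0313% of all genes were called in each direction. LPS + Beta-Ac exceeded term controls in 1 gene, CD163 (4.63-fold, log2 2.21 ± 0.39, adjusted p = 0.0222), and none was lower, against 0.375% and 0.193% of all genes. That call was lost without animal 201, 248 or 249 (adjusted p = 0.0666 to 0.162) and in a fit of only these groups (0.0909). MARCO was also called without animal 200 (log2 5.68, adjusted p = 0.0326) and CSF1R without animal 255 (log2 1.61, adjusted p = 0.0231).

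Ligand and receptor levels were also set against each other within each animal. CSF1 minus CSF1R, a log2 difference that also holds the unequal lengths of the transcripts and so is read only between groups, averaged -0.15 ± 0.42 in preterm controls, 2.48 ± 0.26 at LPS 16h, -0.28 ± 0.40 at LPS 5d, -1.35 ± 0.62 in LPS + Beta-Ac and -0.30 ± 0.97 at term. The 4 LPS 16h animals, at 2.15 to 2.76, lay above all others, and the 3 LPS + Beta-Ac animals, at -1.77 to -0.63, lay below all preterm, LPS 16h and LPS 5d animals. In CSF2 minus CSF2RB the preterm controls spread from -7.84 to -3.81 and overlapped the LPS groups. CD163 minus CSF1R averaged -1.98 ± 0.20 in preterm controls, -0.003 ± 0.41 at LPS 16h and -0.46 ± 0.23 in LPS + Beta-Ac, and -1.28 ± 0.01 at LPS 5d and -1.37 ± 0.13 at term. These differences are descriptions and were not tested.

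**Figure D3:**
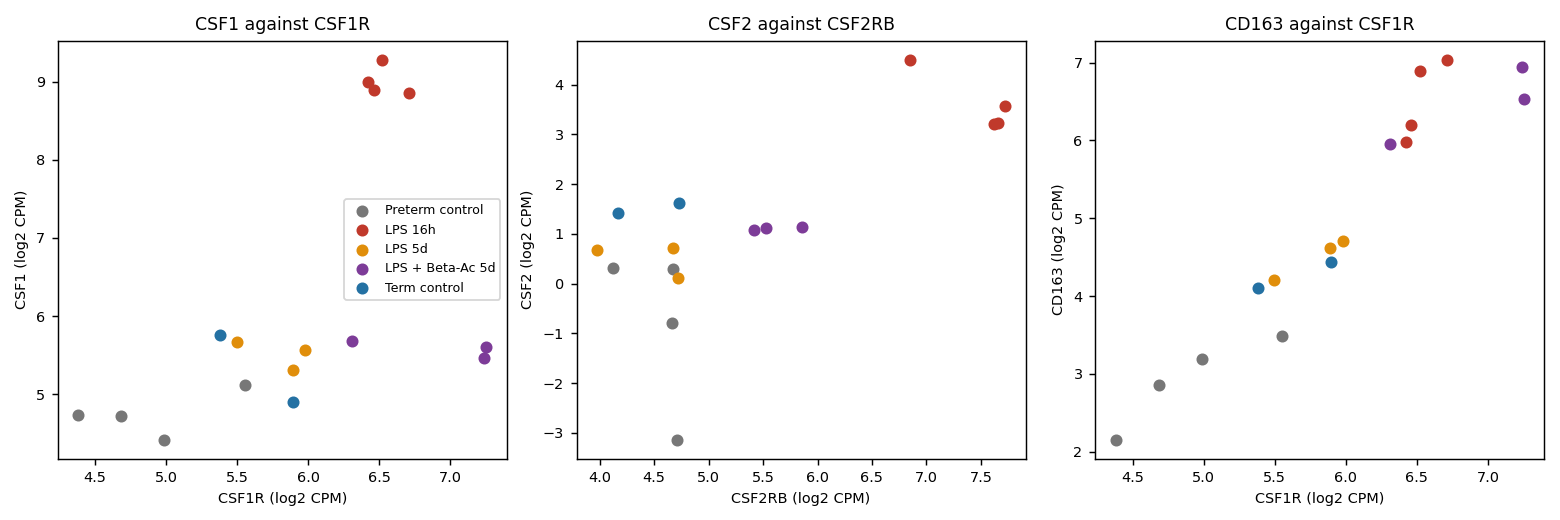
CSF1 against CSF1R, CSF2 against CSF2RB and CD163 against CSF1R (log2 CPM), 1 point per animal, coloured by group. The LPS 16h animals stand apart with high CSF1, and the LPS + Beta-Ac animals have CSF1R near or above the LPS 16h level with CSF1 near the LPS 5d level.

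Among 24 other macrophage genes, 9 were called higher than in preterm controls at LPS 16h, 11 at LPS 5d, 18 in LPS + Beta-Ac and 3 at term, and none was called lower in these comparisons. Over all tested genes, 8.3%, 2.6%, 4.05% and 1.11% were called higher and 6.07%, 2.23%, 2.44% and 0.953% lower. These shares, and those given above for the other comparisons, apply to this list and to the lists below. The median log2 fold change of the macrophage list was 0.42, 1.35, 2.52 and 1.18. At LPS 16h the list was split, with 14 of the 24 genes higher on the log2 scale and 10 lower. At LPS 5d, in LPS + Beta-Ac and at term, 23, 23 and 22 of them were higher. TREM2, a lipid-sensing receptor, rose by 3.33 ± 0.58 and AIF1, an actin-binding protein of macrophages, by 2.79 ± 0.27 at LPS 16h (adjusted p = 0.000442 and 9.46e-07). ITGAX, the integrin CD11c of alveolar macrophages, was among the largest changes at LPS 5d (2.32 ± 0.66, adjusted p = 0.0316), with APOC1, an apolipoprotein (2.29 ± 0.62, adjusted p = 0.0228). In LPS + Beta-Ac, GPNMB, a glycoprotein of lipid-loaded macrophages, rose from 7.81 to 271 CPM (log2 4.85 ± 1.05, adjusted p = 0.00693) and CHIT1, the macrophage chitinase, from 3.40 to 102 CPM (4.70 ± 1.23, adjusted p = 0.0191). MCEMP1, a membrane protein of mast cells and macrophages, was near 0 in preterm controls at 0.0180 CPM and reached 22.8 CPM at LPS 16h, 0.361 CPM at LPS 5d and 3.66 CPM in LPS + Beta-Ac, and was the one gene of this list called higher with Beta-Ac than with LPS alone (3.22 ± 0.47, adjusted p = 0.0232).

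Between LPS 16h and LPS 5d this list divided. APOC1 (2.95 ± 0.62), VSIG4, a complement receptor (2.36 ± 0.47), ACP5, FOLR2, STAB1 and APOE were called higher at 5 days, and MCEMP1 (-5.87 ± 0.44), TREM2 and AIF1 were called lower. The median of the list was 0.62, that of all tested genes 0.04. LPS + Beta-Ac exceeded term controls in MCEMP1, C1QC and C1QB, the last 2 being chains of the complement starter C1q, by 3.30, 1.77 and 1.71.

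Of 17 measured genes of PPARG partners and lipid handling, 5 were called higher and 1 lower at LPS 16h, 1 higher at LPS 5d, 2 higher in LPS + Beta-Ac and 3 higher at term than in preterm controls. The 1 called lower at LPS 16h and the 1 called higher at LPS 5d stood beside 6.07% and 2.6% of all tested genes. The median of the list was 0.04, 0.36, 0.32 and 0.42. OLR1, the oxidized LDL receptor (4.73 ± 0.34, adjusted p = 5.43e-08), ANGPTL4, an inhibitor of lipoprotein lipase (3.52 ± 0.46, adjusted p = 3.72e-05), and the transcription factor CEBPB (2.19 ± 0.18, adjusted p = 1.78e-07) rose most at LPS 16h, and PDK4, a kinase that limits glucose oxidation, fell by 1.55 (adjusted p = 0.00238). ABCA1, a cholesterol exporter, was called higher in all 4 comparisons, by 1.496 at LPS 16h, 1.673 at LPS 5d, 1.768 in LPS + Beta-Ac and 1.501 at term. The lipid droplet protein PLIN2 was higher at term by 1.64 ± 0.35 (adjusted p = 0.0216). From LPS 16h to LPS 5d OLR1, ANGPTL4, CEBPB and LPL were lower, and PDK4 and NR1H3, the liver X receptor, higher.

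Of 16 tested genes around CSF2, 10 were called higher and 1 lower at LPS 16h, and 4, 4 and 2 were called higher at LPS 5d, in LPS + Beta-Ac and at term, with medians of 1.35, 0.04, 0.17 and 0.29. BCL2A1, a survival factor of myeloid cells, rose from 0.286 to 123 CPM at LPS 16h (log2 8.79 ± 0.50, adjusted p = 7.98e-09). The cytokine signal inhibitor SOCS3 rose by 4.50 ± 0.37 and the STAT5 target PIM1 by 2.67 ± 0.15 (adjusted p = 4.43e-07 and 3.40e-09). IL5, a ligand that shares the CSF2RB chain, fell by 1.57 (adjusted p = 0.00122). BHLHE41, a transcription factor of alveolar macrophages, was called higher at LPS 5d (0.223 to 1.28 CPM, log2 2.54 ± 0.73, adjusted p = 0.0289) and in LPS + Beta-Ac (4.25 CPM, log2 4.24 ± 0.73, adjusted p = 0.00111). BCL2A1 (-4.95), SOCS3 (-2.71) and CISH (-2.36) were among the 8 genes called lower at LPS 5d than at LPS 16h, and IL5 was the 1 called higher. PIM1 was higher in LPS + Beta-Ac than at term (1.503 ± 0.19, adjusted p = 0.00358). CSF2RA, the ligand-binding chain, was not analysed here.

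Of 16 genes around CSF1R, 10 were called higher at LPS 16h, 3 at LPS 5d, 7 in LPS + Beta-Ac and 5 at term than in preterm controls, none lower, with medians of 1.47, 0.36, 0.88 and 0.20. The myeloid transcription factor SPI1 rose by 3.89 ± 0.22 and the kinase FGR by 3.81 ± 0.18 at LPS 16h (adjusted p = 5.24e-09 and 7.33e-10). SPI1 was called in all 4 comparisons, at 1.78 at LPS 5d, 3.14 in LPS + Beta-Ac and 1.97 at term. IL34, the second ligand of CSF1R, rose by 2.68 at LPS 16h, 1.29 at LPS 5d and 1.59 in LPS + Beta-Ac. All 16 genes had a higher mean on the log2 scale in LPS + Beta-Ac than at LPS 5d, by as little as 0.01 for CEBPD and 0.05 for ID3. TLR4, the LPS receptor (1.66 ± 0.27, adjusted p = 0.0327), was 1 of 2 called higher, against 0.104% of all tested genes. At LPS 5d 8 genes were called lower than at LPS 16h, among them TLR4 (-3.05) and FGR (-2.89). LPS + Beta-Ac exceeded term controls in 4 genes, among them IL34, LYN and IRF8, by 1.72, 1.20 and 1.11.

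The genes whose log2 CPM ran most alike with each of the 10 across the 16 animals were taken as the 3 with the highest Pearson r, as a description over libraries that fall into groups. MARCO was closest to OSCAR (r = 0.96), HK3 and MMP9 (both 0.95). CD163 was closest to DOCK2 (0.98), CD86 and CD48 (both 0.97), and CSF1R to MS4A7 (0.96), FPR3 and CD86 (both 0.95). MSR1 was closest to ADAP2 (0.94), CD4 and NPL (both 0.92), and MRC1 to GLIPR1L2 (0.85), PLAU (0.84) and NAAA (0.83). CSF1 was closest to SPIB and PTPN2 (both 0.99) and TNFAIP3 (0.98), CSF2RB to IL7 (0.98), TREML2 and NLRP3 (both 0.97), and CSF2 to GPX3 (0.93), SUCNR1 and S100A9 (both 0.91). The likeness was lowest for PPARG, with SLA and LAPTM5 (both 0.80) and MS4A4A (0.77), and for FABP4, with FOXN1 (0.76), KCNE2 (0.75) and TTI1 (0.74).

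The likeness depended in part on the group means. After the group means were removed, r was 0.42 between CSF1 and SPIB and 0.86 between CD163 and CD86. Over the 45 pairs of the 10 genes, the median r was 0.57 across all animals and -0.03 within groups, and 42 and 21 pairs were positive. CD163 and CSF1R had an r of 0.96 across all animals and 0.83 within groups. CSF1 and CSF2RB had an r of 0.93 across all animals and 0.42 within groups.

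Markers of other cell types moved with some of these changes. The 9 monocyte markers (CD14, FCN1 and VCAN among them) summed to 251 to 408 CPM in preterm controls, 2591 to 3431 CPM at LPS 16h, 240 to 339 CPM at LPS 5d, 401 to 696 CPM in LPS + Beta-Ac and 306 to 406 CPM at term. The 10 neutrophil markers, CSF3R, CXCR2 and CXCR1 among them, summed to 28.5 to 60.5, 2216 to 2557, 177 to 258, 307 to 544 and 119 to 168 CPM in the same order. LCN2 made up most of this sum at LPS 16h, at LPS 5d and in LPS + Beta-Ac. It averaged 2098, 143 and 251 CPM there, against 8.08 CPM in preterm controls. CXCR2 averaged 13.8 CPM at LPS 16h and 14.3 CPM in preterm controls, and CXCR2, MPO and ELANE were not called there. Of the 9 monocyte markers, 8, 2, 5 and 3 were called higher than in preterm controls at LPS 16h, at LPS 5d, in LPS + Beta-Ac and at term. Of the 10 neutrophil markers, 7, 4, 6 and 4 were, and none of either list was called lower. At LPS 5d, 6 monocyte markers were higher on the log2 scale and 3 lower. CD14 (33.15 to 86.45 CPM) and S100A9 (4.48 to 17.9 CPM) were the 2 called, while VCAN (187 to 130 CPM) and LYZ (67.7 to 29.3 CPM) had lower means. VCAN and LYZ made up most of the monocyte sum in preterm controls. MARCO, MSR1, MRC1, CD163 and CSF1R together summed to 41.1 to 76.8, 171 to 297, 79.4 to 111, 196 to 362 and 88.8 to 139 CPM. None of the markers of either list was at 0 in all animals of a group, and their part in the results was not tested.

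**Figure D4:**
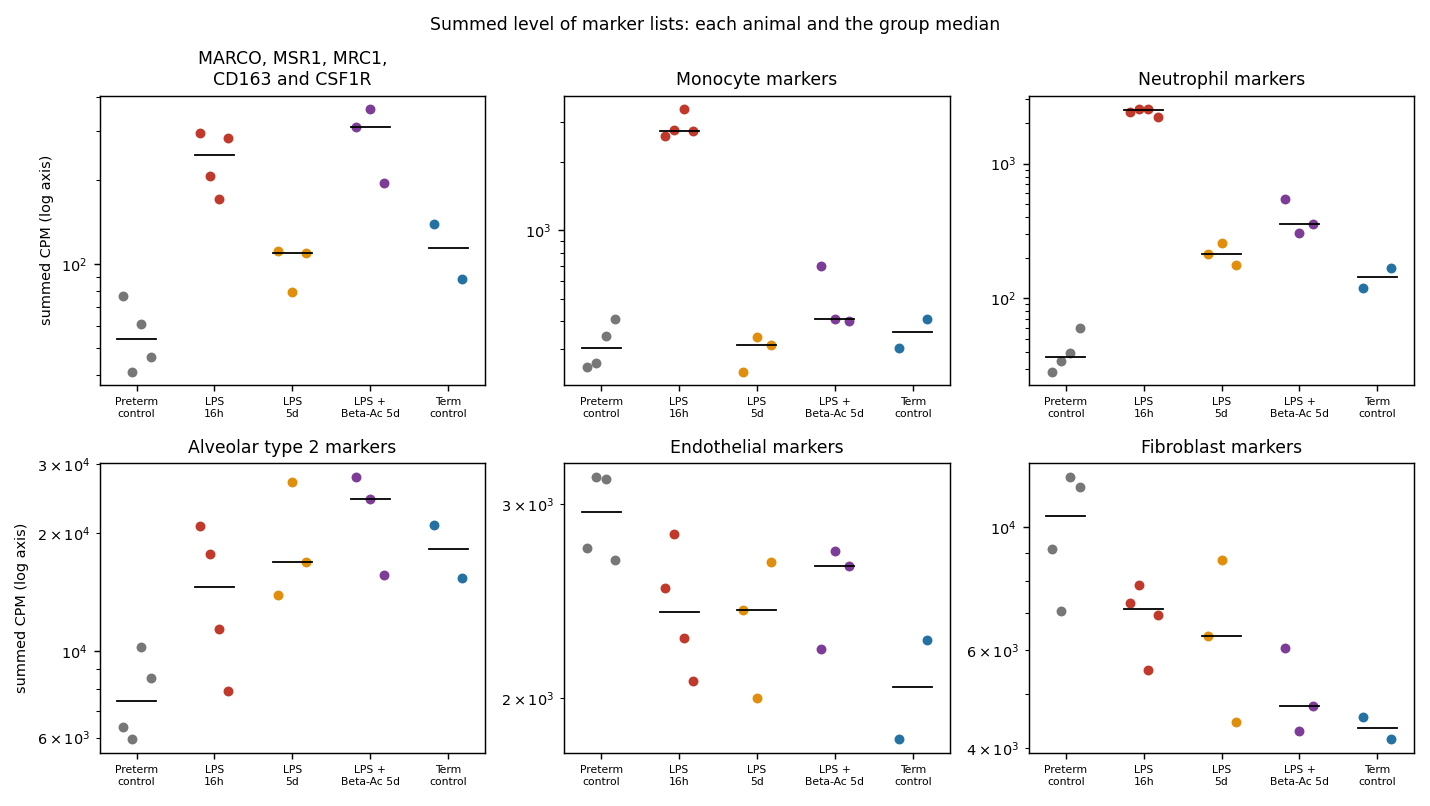
Summed CPM (log axis) of 5 of the 10 genes and of 5 marker lists in each animal, with the group median as a line. Monocyte and neutrophil sums are highest at LPS 16h, at 2591 to 3431 and 2216 to 2557 CPM, while the sum of the macrophage receptors spans 171 to 297 CPM at LPS 16h and 196 to 362 CPM in LPS + Beta-Ac.

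Other lists covered cells that also make some of the 10 genes. The 6 alveolar type 2 markers, of a cell that makes CSF2, summed to 5939 to 10220 CPM in preterm controls, 7873 to 20820 CPM at LPS 16h, 13850 to 26930 CPM at LPS 5d, 15630 to 27870 CPM in LPS + Beta-Ac and 15360 to 20970 CPM at term, and 3, 2, 4 and 0 of them were called higher than in preterm controls. The 6 fibroblast markers, of a cell that makes CSF1, summed to 7072 to 12360, 5526 to 7864, 4444 to 8723, 4287 to 6048 and 4141 to 4551 CPM, with 2, 0, 2 and 2 called lower. The 8 endothelial markers summed to 2666 to 3177, 2071 to 2819, 2000 to 2658, 2217 to 2719 and 1834 to 2259 CPM, with 1, 0, 0 and 1 called lower. The 6 lymphatic endothelial markers summed to 377 to 430, 314 to 360, 345 to 419.5, 282 to 349.5 and 371 to 434 CPM, with 1, 0, 0 and 0 called lower. The endothelial sums at LPS 5d and at term lay below those of all preterm controls. So did the lymphatic sums at LPS 16h and in LPS + Beta-Ac. The 5 adipocyte markers summed to 5.19 to 12.1 CPM in all animals, with ADIPOQ at 0 in preterm controls and LPS + Beta-Ac and LEP at 0 at LPS 16h and LPS 5d. The 7 lymphocyte markers summed to 24.7 to 37.4 CPM in preterm controls, 39.8 to 61.3 CPM at LPS 16h, 39.4 to 45.9 CPM at LPS 5d, 50.7 to 71.4 CPM in LPS + Beta-Ac and 48.7 to 50.3 CPM at term, and 4 of them were called higher in LPS + Beta-Ac than in preterm controls. The 7 erythroid markers summed to 606 to 1572, 517 to 1428, 350 to 1072, 1199 to 1402 and 370 to 670 CPM in the same order. All 7 had a higher mean in LPS + Beta-Ac than at LPS 5d, with a median log2 difference of 1.33. In that comparison all 9 monocyte, 9 of 10 neutrophil and all 7 lymphocyte markers were also higher on the log2 scale. Their medians were 0.80, 1.31 and 0.41. All 6 alveolar type 2 and 7 of 8 endothelial markers were higher, by medians of 0.25 and 0.08. All 6 fibroblast and 5 of 6 lymphatic endothelial markers were lower. No marker of these lists was called there. Their part in the results was not tested.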

How the data were processed

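Whole fetal lung RNA of 16 animals was poly(A)-selected and sequenced as 75 bp paired-end reads. With kallisto the authors quantified them against build Mmul_10 of the rhesus genome, and gene totals were formed by tximport. The authors made their own comparisons with DESeq2. The deposited values are whole-number counts per Ensembl gene, not normalized. The article names a column kit for RNA extraction and the labels a phenol reagent, while tool versions and annotation release are not stated in these sources. The layout of the table kept its unit from being recorded as counts, so count models were not run and limma took their place. Symbols were matched by Ensembl ID, and CSF2RA, CEBPA and HBB matched none. Sequences were not used because the reference given held none, and its coordinates were not used because they were of another assembly.

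Counts were scaled with TMM (trims of 30% and 5%) and turned into log2 CPM with a prior count of 2, which draws the fold change of low genes toward 0. Genes that reached 0.371 CPM in 2 or more animals, with a total of 15 or more counts, were fitted with limma 3.58.1 in R 4.3.3 (trend and robust options, 1 mean per group over all 16 animals, two-sided tests, Benjamini-Hochberg adjustment over 19199 genes). No fold is given against a group averaging under 4 counts, except the bound for MARCO. The design gave 8 comparisons, with 4 lists of pathway genes and 11 of cell markers, and the scripts were tested on simulated data. Alternatives were limma-voom, other scalings, filters and prior counts, no robust option, a fit of only the groups compared, no minimum fold change, and leaving out each animal. From each list up to 3 called genes with the largest log2 fold change per comparison were named, others only in counts or as further called members, and some called genes are not reported here. The 10 genes and the lists were chosen with earlier results of these data known. Nothing in the labels says whether animals shared a dam's cohort or a batch. Replicates differed by more than sampling noise (chi-square per degree of freedom of 31.1 or more in all 19 pairs). The first principal component held 35.3% of the variance and set the LPS 16h libraries apart. Animals given Beta-Ac alone were not analysed here.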

Additional observations from a re-analysis of the deposited data

Results flagged for a closer look

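The 2 values that stood far from the rest of their group of 4 were those of CSF2RB, in preterm control animal 113, at 4.13 on the log2 CPM scale below the other 3, and in LPS 16h animal 029, at 6.85 below the other 3. The test used, Dixon's gap against the range of the group, marks about 1 in 20 groups by chance, and groups of 3 or fewer animals could not be tested.

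The effect against the shared preterm controls differed between LPS 5d and LPS 16h for 5 genes, by -1.16 for MRC1, -2.01 for CD163, -3.12 for CSF2, -3.01 for CSF2RB and -3.49 for CSF1 on the log2 scale (limma, adjusted p = 0.0342, 0.000236, 0.00133, 2.99e-07 and 9.86e-09). The effect of LPS + Beta-Ac exceeded that of LPS 5d for CD163 by 1.97 (adjusted p = 0.0496).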

How the results depend on the processing

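No paired analysis was possible because the replicate numbers are animal numbers, which no groups share. Of the fold changes of the 10 genes, 449 of 510 values with 1 animal left out and 616 of 640 under other settings kept their direction and their side of the threshold. The number of the 10 genes called at LPS 5d against preterm controls was 2, but 1 with limma-voom and 4 without a minimum fold change, an alternative chosen after seeing the data, and 1 to 3 with 1 animal left out. Against LPS 5d, LPS + Beta-Ac had 1, but 0 with limma-voom, no filter on low counts, a prior count of 0.5 or only the groups compared, and 0 to 2 with 1 animal left out. At term against preterm controls the number was 0, but 1 with library totals (CD163), a strict filter, a prior count of 0.5 or no robust option (MARCO in each), and 0 to 2 with 1 animal left out. LPS + Beta-Ac against term had 1, but 0 in a fit of only those groups, and 0 to 2 with 1 animal left out. With 1 animal left out, LPS + Beta-Ac against preterm controls had 4 to 8 (4 without animal 248), LPS 16h against preterm controls 7 to 9 and LPS 5d against LPS 16h 4 to 5. The cause was not tested.

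The direction turned for the following differences, none of them called. CSF2RB at LPS 5d against term was -0.0078 with limma-voom and -0.0788 with library totals, where MARCO was -0.0449. MRC1 at LPS 5d against preterm controls was 0.0041 with median-of-ratios scaling and 0.0036 in a fit of only those groups. With 1 animal left out, LPS 5d against preterm controls spanned -0.23 to 0.23 for MRC1, -0.0524 to 0.39 for PPARG and -0.23 to 0.15 for CSF2RB. LPS 5d against term spanned -2.64 to 2.67 for MARCO, -1.46 to 0.87 for MSR1, -0.27 to 0.28 for CSF2RB, -0.25 to 0.61 for CSF1 and -0.11 to 0.41 for CSF1R. Term against preterm controls spanned -0.14 to 0.59 for FABP4 and -0.37 to 0.19 for CSF2RB, and LPS + Beta-Ac against term -0.67 to 0.0488 for PPARG and -0.18 to 0.68 for CSF1. FABP4 at LPS 5d against LPS 16h spanned -1.004 to 0.0902, and CSF1 in LPS + Beta-Ac against LPS 5d -0.034 to 0.15.

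Over all genes, the 20 calls of LPS + Beta-Ac against LPS 5d became 3 with limma-voom, 0 in a fit of only those groups and 2 to 57 with 1 animal left out. The 12 of LPS 5d against term became 7, 0 and 0 to 11, and 19 without a minimum fold change. In a fit of only the groups compared, the 397 of term against preterm controls became 109 and the 109 of LPS + Beta-Ac against term became 13. With 1 animal left out these spanned 129 to 562 and 17 to 127. Without a minimum fold change the calls were 7359 at LPS 16h, 2827 at LPS 5d, 3317 in LPS + Beta-Ac and 766 at term against preterm controls, and 6718 at LPS 5d against LPS 16h. The 2 term animals and the few counts of MARCO, FABP4 and CSF2 limit what could be detected.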
